A study of Mus musculus with 6 samples.

Results

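Superoxide and the hydrogen peroxide made from it are removed by a small set of enzymes, and 8 of their genes are described here: the superoxide dismutase genes Sod1, Sod2 and Sod3, the copper chaperone gene Ccs, the catalase gene Cat, and the glutathione peroxidase genes Gpx1, Gpx3 and Gpx4. They were chosen by symbol, for what their products do, out of 57180 gene identifiers in the files, and all 8 were found and passed the filter on low counts. Transcripts were measured by RNA-seq in primary corneal endothelial cells of mice, the layer on the inner face of the cornea that keeps it clear by pumping fluid out. The group labelled Col8a2Q455K/Q455K/Tcf4+/- (Tcf4+/- group, 3 libraries) is labelled as a heterozygous knockout of Tcf4, whose product is a transcription factor that binds E-boxes, and as homozygous for the Col8a2 Q455K allele. The group labelled Col8a2Q455K/Q455K (Col8a2 group, 3 libraries) is labelled with the Col8a2 allele alone. The Col8a2 product is a short-chain collagen of the membrane under these cells, and the mutant serves as a model of Fuchs endothelial corneal dystrophy, so that no library here shows the healthy state. The sources used here give neither age nor sex, nor how many corneas made a library, nor how the Tcf4 allele was disrupted. The comparison asked what the loss of 1 Tcf4 allele changes in this model.

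Superoxide dismutases turn superoxide into hydrogen peroxide. Sod1 encodes the copper and zinc enzyme of the cytosol, Sod2 the manganese enzyme of mitochondria and Sod3 a secreted copper and zinc enzyme that binds to the matrix outside cells, while Ccs hands copper to the Sod1 protein. Catalase breaks down hydrogen peroxide in peroxisomes. Glutathione peroxidases reduce peroxides with glutathione: Gpx1 is the main one of the cytosol and mitochondria, Gpx3 is secreted, and Gpx4 acts on lipid peroxides in membranes and holds back ferroptosis. Oxidative damage is a much studied feature of Fuchs dystrophy, and corneal endothelium faces light and high oxygen use through life.

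The glutathione peroxidase genes share a feature that was not used to choose them. Gpx1, Gpx3 and Gpx4 are read through a TGA codon, normally a stop, where selenocysteine is put in at the active site. In the GENCODE M21 transcripts with the longest complete coding sequence, each of them holds 1 in-frame TGA, which the annotation marks as selenocysteine. None of the longest coding sequences of Sod1, Sod2, Sod3, Ccs and Cat holds one. Of the glutathione peroxidase genes outside the set, Gpx2 also has it at codon 40, and Gpx5, Gpx6, Gpx7 and Gpx8 do not. The stretches around the codon are shown because these genes depend on it for an active enzyme, with 30 coding bases on each side, 5′ to 3′ on the coding strand, and the TGA codon in capitals.
Gpx1 (chromosome 9, codon 47): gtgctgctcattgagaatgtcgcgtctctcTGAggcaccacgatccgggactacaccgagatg
Gpx3 (chromosome 11, codon 73): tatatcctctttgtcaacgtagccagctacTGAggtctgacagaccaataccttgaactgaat
Gpx4 (chromosome 10, codon 129): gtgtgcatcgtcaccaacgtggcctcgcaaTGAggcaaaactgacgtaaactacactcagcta
Set side by side on the TGA, Gpx1 and Gpx4 had the same base at 35 of 63 positions, Gpx3 and Gpx4 at 29, and Gpx1 and Gpx3 at 27.

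The transcript of the targeted gene, Tcf4, did not stand lower in the group with its knockout label. It stood at 440, 599 and 373 CPM (counts scaled by TMM to a common library size) in the Tcf4+/- libraries and at 313, 470 and 430 CPM in the Col8a2 libraries, a log2 fold change of 0.22 with a 95% interval from -0.52 to 0.96. The groups are therefore named by their labels only. Each library held between 30344161 and 54265479 estimated counts. Markers of corneal endothelium were abundant in all libraries, with a summed level of 6655 to 14563 TPM (a share of transcripts corrected for length) in the Tcf4+/- group and 12777 to 17463 TPM in the Col8a2 group. Car3 and Ptgds were the highest of these 12 markers. Lens markers stood apart in Tcf4+/- replicates 2 and 3, at 5808 and 11428 TPM summed over 11 genes, against 146 TPM in Tcf4+/- replicate 1 and 47.0 to 849 TPM in the Col8a2 group. Of the 10 lens markers tested, all were fitted higher in the Tcf4+/- group and 7 had an unadjusted edgeR p under 0.05. Crybb2 and Cryaa led them, and their part in the results was not tested. Other lists overlapped between the groups, with summed levels of 6504 to 10202 TPM against 5583 to 9392 TPM for keratocytes, 1382 to 4122 TPM against 2190 to 3736 TPM for epithelium, 1676 to 5646 TPM against 1638 to 1920 TPM for photoreceptors, 270 to 405 TPM against 263 to 973 TPM for leukocytes, 119 to 168 TPM against 86.3 to 196 TPM for vessels and 75.9 to 171 TPM against 89.4 to 178 TPM for Schwann cells. No marker list had a gene at 0 in all 6 libraries.

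No gene of the set passed the test between the groups, and the secreted enzymes Gpx3 and Sod3 had the largest differences. Both were fitted lower in the Tcf4+/- group, with log2 fold changes of -1.45 for Gpx3 and -1.05 for Sod3. Of all genes tested, 3.5% had a larger fitted fall than Gpx3 and 6.2% a larger one than Sod3. The 6 genes whose products stay inside the cell had fitted values between -0.22 and 0.23. With edgeR's quasi-likelihood test over 17639 genes, 0 of 8 passed a Benjamini-Hochberg adjusted p of 0.05, where the share called over all genes was 0.00%, and each of the 8 had an adjusted p of 0.99988. At an unadjusted p under 0.05 in either direction stood 2 of the 8, Gpx3 (0.0319) and Sod3 (0.0343), where 427 of all genes tested (2.42%) did. That edgeR count over all genes lay below the 882 expected at this threshold with no difference between the groups. DESeq2 called 76 genes higher and 31 lower, none of them in the set (DESeq2 adjusted p = 0.467 for Sod3 and 0.499 for Gpx3), and limma voom called 0 (1251 and 515 genes at an unadjusted p under 0.05 with DESeq2 and limma voom). Of the set, 4 genes were fitted lower and 4 higher with a median log2 fold change of -0.04, and the median over all genes was 0.00. The fitted signs of Sod1, Cat, Gpx1 and Gpx4 turned on the log2 TPM scale, and those of Gpx3, Sod3, Sod2 and Ccs did not.

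**Figure D1:**
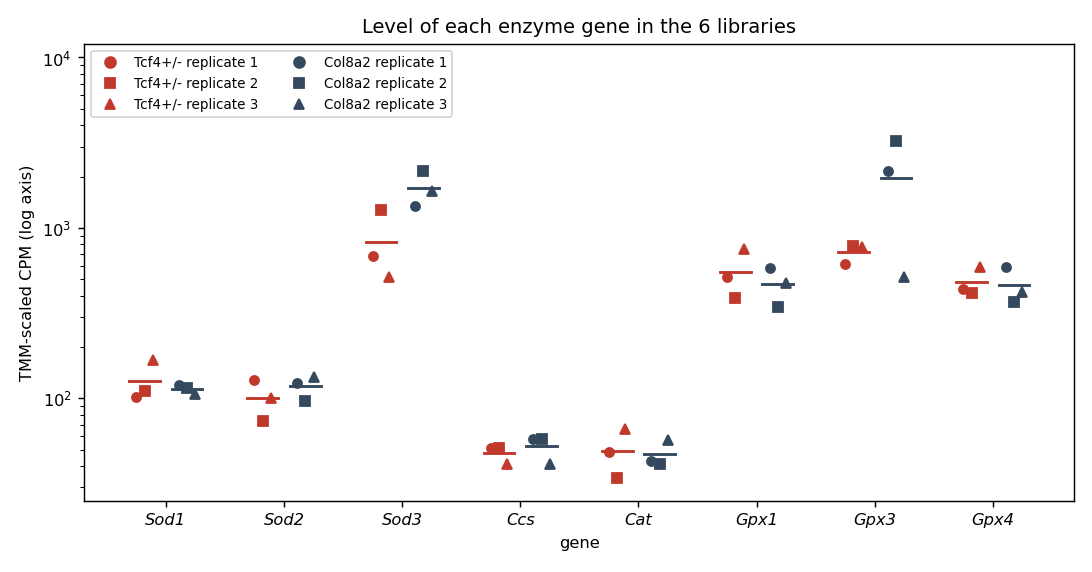
TMM-scaled CPM on a log axis for each of the 8 genes, with 1 point per library (symbols give the replicate number) and a bar at the group mean, Tcf4+/- in red and Col8a2 in dark blue. Sod3 is the gene whose groups do not overlap, and the Gpx3 values of the Col8a2 group run from 515 to 3229 CPM.

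Sod3, the extracellular superoxide dismutase, had groups that did not overlap. It stood at 687, 1281 and 518 CPM in Tcf4+/- replicates 1, 2 and 3, and at 1351, 2157 and 1635 CPM in Col8a2 replicates 1, 2 and 3. The highest Tcf4+/- library, replicate 2, lay just under the lowest Col8a2 library, replicate 1. Sod3 was the 1 gene of the 8 without overlap on the lower side, where 3.57% of all genes tested were. The means were 829 ± 401 CPM in the Tcf4+/- group and 1714 ± 409 CPM in the Col8a2 group (SD, n = 3 each). The fitted fold was 0.483 with a 95% interval from 0.250 to 0.936, and edgeR gave an adjusted p of 0.99988, so the difference did not pass. Without Tcf4+/- replicate 2 the log2 fold change was -1.50, and without Tcf4+/- replicate 3 it was -0.81.

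The corneal endothelium marker level was also lowest in Tcf4+/- replicate 3, where Sod3 was lowest. The summed markers stood at 13696, 14563 and 6655 TPM in Tcf4+/- replicates 1, 2 and 3 and at 12777, 17463 and 13913 TPM in Col8a2 replicates 1, 2 and 3, and 9 of the 12 markers were fitted lower in the Tcf4+/- group, with a median log2 fold change of -0.17. With the mean level of these markers as a covariate the Sod3 log2 fold change was -0.94 (edgeR adjusted p = 0.9998), and without Tcf4+/- replicates 2 and 3, which leaves 1 library assumed to vary like the others, it was -1.33 (edgeR adjusted p = 1). In RNA from many cells together, fewer cells that make a transcript and less of it per cell cannot be told apart.

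Sod1, the cytosolic superoxide dismutase, was the most even of the dismutases within the Col8a2 group. It stood at 101.4, 110.6 and 167.9 CPM in the Tcf4+/- libraries and at 118.8, 114.9 and 105.8 CPM in the Col8a2 libraries. Tcf4+/- replicate 3 was high and the other 5 lay within 101.4 to 118.8 CPM. The log2 fold change was 0.16 with an interval from -0.48 to 0.80, and it was -0.10 without Tcf4+/- replicate 3. Sod2, the mitochondrial enzyme, stood at 128, 73.8 and 100 CPM in the Tcf4+/- libraries and at 123, 95.7 and 134 CPM in the Col8a2 libraries. The groups overlapped, with replicate 2 lowest in each, and the log2 fold change was -0.22 with an interval from -0.89 to 0.44. It was -0.44 without Tcf4+/- replicate 1 and -0.03 without Tcf4+/- replicate 2. Ccs, the copper chaperone, stood at 50.79, 51.08 and 41.05 CPM in the Tcf4+/- libraries and at 57.92, 57.92 and 41 CPM in the Col8a2 libraries. Its values lay within a 1.41-fold range, the narrowest of the 8 genes, and its log2 fold change was -0.13 with an interval from -0.76 to 0.49. Over the fits without 1 library it ran from -0.28 to -0.05.

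Gpx3, the secreted glutathione peroxidase, varied 6.27-fold over the libraries, and both its extremes were Col8a2 libraries. It stood at 614, 783 and 769 CPM in Tcf4+/- replicates 1, 2 and 3 and at 2154, 3229 and 515 CPM in Col8a2 replicates 1, 2 and 3. Col8a2 replicates 1 and 2 were high, and Col8a2 replicate 3 was the lowest of all 6 libraries, so the groups overlapped. The means were 722 ± 93.6 CPM in the Tcf4+/- group and 1966 ± 1367 CPM in the Col8a2 group (SD, n = 3 each). The fitted fold was 0.367 with an interval from 0.150 to 0.899, and edgeR gave an adjusted p of 0.99988. Without Col8a2 replicate 2 the log2 fold change was -0.89, and without Col8a2 replicate 3 it was -1.90 (edgeR adjusted p from 0.9997 to 0.9999 over the fits that each left out 1 library). A mean of at least 100 CPM was reached by 1716 of the genes tested, 6 of them in the set. Of these 1716 genes, 12 (0.699%) were lower at an unadjusted edgeR p under 0.05, Gpx3 and Sod3 among them. Over all genes tested and in either direction, the share was 2.42%. The lower direction and the 100 CPM level both fit what Gpx3 and Sod3 already showed, so 0.699% is not a neutral background. The set was chosen with earlier results of these data known, so these shares are a description only.

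Markers of several other cell types were also lowest in Col8a2 replicate 3, namely those of pigment cells, trabecular meshwork, keratocytes, leukocytes, vessels and photoreceptors. The 6 pigment markers, led by Dct and Mlana, summed to 433, 922 and 410 TPM in Tcf4+/- replicates 1, 2 and 3 and to 725, 905 and 254 TPM in Col8a2 replicates 1, 2 and 3. The 6 meshwork markers, led by Mgp and Angptl7, summed to 877, 1973 and 1521 TPM in the Tcf4+/- libraries and to 1472, 1889 and 537 TPM in the Col8a2 libraries. Both sums were about as high in Tcf4+/- replicate 2 as in Col8a2 replicate 2. The keratocyte, leukocyte, vessel and photoreceptor sums in Col8a2 replicate 3 were 5583, 263, 86.3 and 1638 TPM. The part of any of these cells in the Gpx3 values was not tested. Ptgds, a marker of the endothelium list, stood at 1683, 2277 and 1675 CPM in the Tcf4+/- libraries and at 3286, 3444 and 829 CPM in the Col8a2 libraries, with the same Col8a2 library lowest. The endothelium list as a whole was not lowest there. Car3, the other marker named from it, was highest of all libraries in Col8a2 replicate 3, at 6228 CPM. The summed endothelium markers were 13913 TPM in that library, against 12777 TPM in Col8a2 replicate 1.

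**Figure D2:**
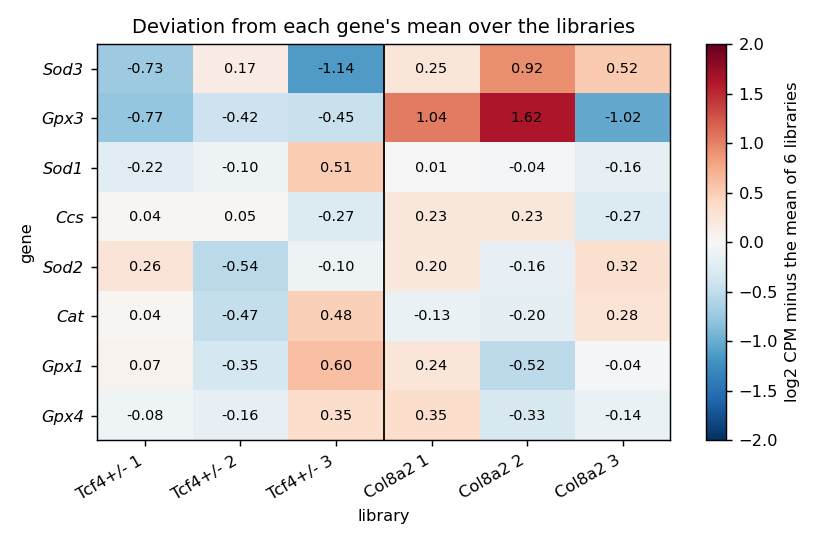
Deviation of log2 CPM (prior count 2) from each gene's mean over the 6 libraries, with genes down the page and Tcf4+/- libraries left of Col8a2 libraries. Gpx3 is 1.04 and 1.62 above its mean in Col8a2 replicates 1 and 2 and 1.02 below it in Col8a2 replicate 3, and Sod3 is 1.14 below its mean in Tcf4+/- replicate 3.

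The intracellular glutathione peroxidase genes of the set, Gpx1 and Gpx4, lay close together in level. Gpx1, the cytosolic and mitochondrial glutathione peroxidase, stood at 517, 385 and 746 CPM in the Tcf4+/- libraries and at 583, 343 and 477 CPM in the Col8a2 libraries. Gpx4, the membrane lipid peroxidase, stood at 438, 415 and 589 CPM in the Tcf4+/- libraries and at 591, 369 and 422 CPM in the Col8a2 libraries. Both genes were lowest in replicate 2 of each group. The log2 fold change of Gpx1 was 0.23 with an interval from -0.59 to 1.05. That of Gpx4 was 0.06 with an interval from -0.68 to 0.80. RSEM shares reads among near-identical copies, and the processed pseudogene Gpx4-ps2 was given 0 to 9.85 TPM, against 619 to 915 TPM for Gpx4.

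Cat, the catalase gene, was the least abundant per length. It stood at 48.1, 33.8 and 65.6 CPM in the Tcf4+/- libraries and at 42.9, 40.9 and 56.8 CPM in the Col8a2 libraries, with replicate 2 lowest and replicate 3 highest in each group. Its log2 fold change was 0.07 with an interval from -0.65 to 0.79. Red blood cells hold much catalase, Gpx1 and Sod1 protein, so erythroid markers are given beside these genes. All 5 erythroid markers tested were fitted higher in the Tcf4+/- group, with a median log2 fold change of 1.56, and 3 of them had an unadjusted edgeR p under 0.05. The 6 erythroid markers, led by Hba-a2 and Hba-a1, summed to 16876, 3113 and 5226 TPM in Tcf4+/- replicates 1, 2 and 3 and to 3185, 1741 and 5559 TPM in Col8a2 replicates 1, 2 and 3. The sum was highest in Tcf4+/- replicate 1. The part of red blood cells in these values was not tested.

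**Figure D3:**
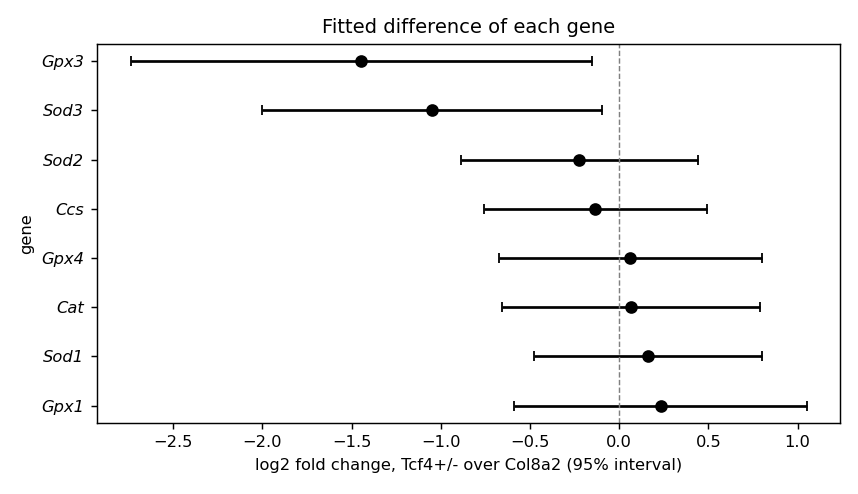
Fitted log2 fold change of Tcf4+/- over Col8a2 for each gene, with the 95% interval of the edgeR fit as bars and the most negative value at the top. The unadjusted intervals of Gpx3 (-2.737 to -0.154) and Sod3 (-2.002 to -0.095) leave out 0, and those of the other 6 genes include it.

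Levels of different genes can be compared only per length, so TPM values are given for the order. Gpx3 had the highest mean over the 6 libraries at 1077 TPM, followed by Gpx4 at 744, Gpx1 at 618, Sod3 at 395, Sod1 at 275, Sod2 at 98.6, Ccs at 68.2 and Cat at 20.8 TPM. Most neighbours in this order overlapped. The exceptions were Sod1 and Sod2, where the lowest Sod1 library (236 TPM) lay above the highest Sod2 library (127 TPM), and Ccs and Cat, where 48.0 TPM lay above 26.3 TPM. Gpx3 was above Gpx4 in 2 of 6 libraries, Col8a2 replicates 1 and 2, so its place at the top rests on those libraries. Mitochondrial tRNA genes took 15.6% and 15.8% of TPM in Tcf4+/- replicates 2 and 3 and 0% in the others, which lowers all other TPM values there, and on this scale the median of all genes tested was shifted by -0.15 to -0.18.

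Shares within a library do not depend on that scaling. They do depend on effective length, which is the length less a part set by fragment size. The median of that part was 154.8 and 150.1 bases in Tcf4+/- replicates 2 and 3 and 210.9 to 240.7 bases in the others. Those replicates were also the libraries with mitochondrial tRNA in their TPM and with high lens markers. No Col8a2 library shared these traits, so they cannot be fully told apart from the group label. With 1 effective length per gene, the Sod3 share differed between the groups by -19.1 percentage points in place of -17.6, and the Sod1 share by 16.6 in place of 14.2. Of the summed TPM of Sod1, Sod2 and Sod3, the Sod3 share was 36.1%, 56.0% and 25.1% in Tcf4+/- replicates 1, 2 and 3 and 49.8%, 64.2% and 55.9% in Col8a2 replicates 1, 2 and 3. The share in Tcf4+/- replicate 2 lay within the Col8a2 range, and the other 2 Tcf4+/- libraries lay below it. The Sod1 share was 42.96%, 35.05% and 58.23% in the Tcf4+/- libraries and 35.03%, 28.56% and 30.17% in the Col8a2 libraries, so Sod1 outnumbered Sod3 per length in 2 Tcf4+/- libraries and in no Col8a2 library. The log2 ratio of Sod3 to Sod1 averaged -0.27 ± 0.95 in the Tcf4+/- group and 0.85 ± 0.33 in the Col8a2 group (SD, n = 3 each), with a two-sided exact permutation p of 0.2. With 3 against 3 the smallest p such a test can give is 0.1, and the value adjusted over the 7 ratios computed was 0.84.

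Of the summed TPM of Gpx1, Gpx3 and Gpx4, the Gpx3 share was 24.6%, 35.1% and 24.7% in the Tcf4+/- libraries and 49.2%, 70.1% and 22.7% in the Col8a2 libraries. Gpx1 and Gpx4 had a log2 ratio of Gpx4 to Gpx1 of 0.17 ± 0.25 in the Tcf4+/- group and 0.38 ± 0.18 in the Col8a2 group (SD, n = 3 each, exact permutation p = 0.4). The log2 ratio of Gpx3 to Gpx1 averaged -0.277 ± 0.543 in the Tcf4+/- group and 1.008 ± 1.604 in the Col8a2 group (SD, n = 3 each, exact permutation p = 0.4). The log2 ratio of Gpx3 to Sod3, the secreted pair, was 1.24 ± 0.63 in the Tcf4+/- group and 1.22 ± 1.32 in the Col8a2 group (SD, n = 3 each), and ran from -0.30 in Col8a2 replicate 3 to 2.03 in Col8a2 replicate 1. The other ratios, Sod2 and Ccs to Sod1 and Cat to Gpx1, differed by -0.17 to -0.10 between the groups, with exact permutation p from 0.5 to 1.

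**Figure D4:**
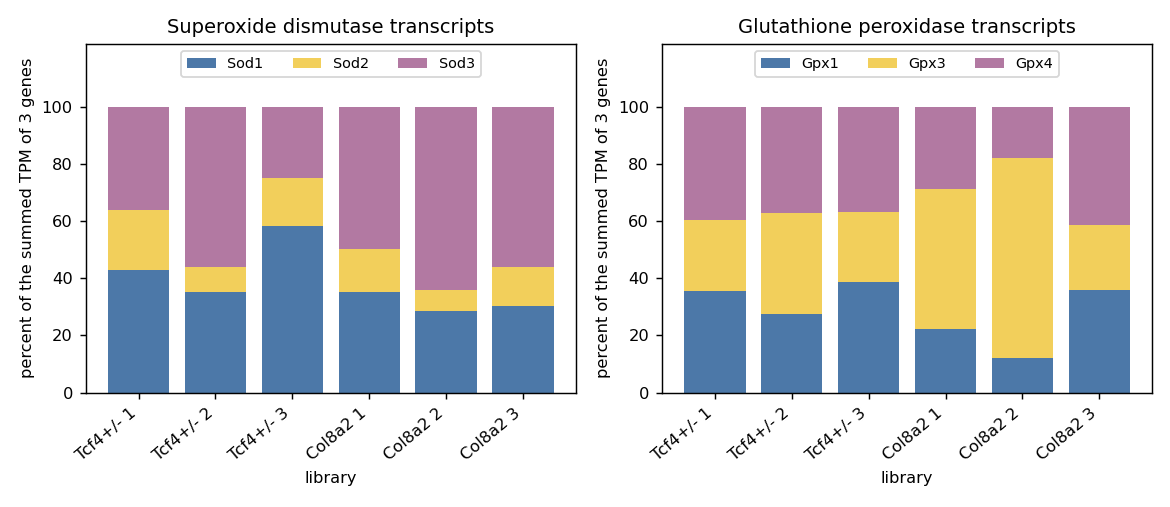
Percent of the summed TPM taken by each of 3 superoxide dismutase genes (left) and 3 glutathione peroxidase genes (right) in each library, Tcf4+/- libraries left of Col8a2 libraries. The Sod3 part is smallest in Tcf4+/- replicate 3 at 25.1%, and the Gpx3 part is largest in Col8a2 replicate 2 at 70.1%.

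Sod3 had the same length of 3738 bases in all libraries. The isoform-weighted length of Sod2 ran from 1191 to 1615 bases and that of Ccs from 855 to 1044 bases, so the mix of isoforms assigned differed between libraries for these genes. For Sod1, Cat, Gpx1, Gpx3 and Gpx4 it varied less, for example from 1573 to 1594 bases for Gpx3. No exon of the 8 genes overlaps an exon of another gene in GENCODE M21, so reads of unknown strand are not shared with a neighbour in that annotation.

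Among the 8 genes, Gpx1 and Gpx4 had the most similar pattern over the libraries. The root mean square difference of their centred log2 CPM over the 6 libraries was 0.18, and for Sod1 and Gpx4 it was 0.21. Among 9628 other named genes with a mean of at least 10 CPM, those closest to Sod3 were Ptgs1, a prostaglandin synthase (cyclooxygenase) gene, at 0.14 and Sumf1, which activates sulfatases, at 0.16. Ptgs1 stood at 11.3, 20.6 and 7.93 CPM in the Tcf4+/- libraries and at 19.9, 28.1 and 21.1 CPM in the Col8a2 libraries. Closest to Gpx3 were Pde5a, a cyclic GMP phosphodiesterase, at 0.19 and Tacr1, the substance P receptor, at 0.32. Pde5a stood at 12.0, 19.4 and 15.2 CPM in the Tcf4+/- libraries and at 44.4, 57.1 and 8.28 CPM in the Col8a2 libraries. The closest genes to the others were Timm10b and Ercc2 for Sod1, Cops6 and Gapdh for Sod2, Rab27a and Amz2 for Ccs, Fiz1 and Vps45 for Cat, Atp5mpl and Park7 for Gpx1, and Psme1 and Hspe1 for Gpx4, all between 0.05 and 0.08. These are the nearest of many genes over 6 libraries, so a close match is a description only.

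Genes of the same redox pathways did not pass either. Peroxiredoxins and sulfiredoxin, which remove peroxides with thioredoxin, had 4 of 7 genes fitted higher and 3 lower, with a median log2 fold change of 0.06. Their members of smallest p were Srxn1, which repairs peroxiredoxins, at -0.45 and Prdx4, the peroxiredoxin of the endoplasmic reticulum, at 0.41. Other glutathione peroxidases had 3 of 5 genes tested and all 3 fitted lower, with a median of -0.23, which was 0.17 without Tcf4+/- replicate 1 and -0.96 without Tcf4+/- replicates 2 and 3. Gpx8 was the main one of them, at 91.7, 115 and 55.5 CPM in the Tcf4+/- libraries and 109, 103 and 93.4 CPM in the Col8a2 libraries, Gpx7 had a log2 fold change of -0.12, and Gpx5 and Gpx6 were at 0 in all libraries.

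Thioredoxin and glutaredoxin genes had a median of -0.14, with 7 of 10 fitted lower. Txnip, which binds and inhibits thioredoxin, had groups that did not overlap, at 138, 188 and 177 CPM in the Tcf4+/- libraries and 108, 96.6 and 125 CPM in the Col8a2 libraries. Its log2 fold change was 0.61 with an unadjusted p of 0.0498 in a family of 17639 tests, and edgeR's adjusted p was 0.99988. On the higher side 4.53% of all genes tested had no overlap. Txnrd3, a thioredoxin reductase gene, stood at -0.80.

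The genes that make and recycle glutathione, the cofactor of the peroxidases, had 7 of 10 fitted lower and a median of -0.20. Slc7a11, the cystine importer, had the smallest p, at 6.86, 15.1 and 1.52 CPM in the Tcf4+/- libraries and 22.5, 22.1 and 9.11 CPM in the Col8a2 libraries, and Gclc, the catalytic subunit of the enzyme that starts glutathione synthesis, had a log2 fold change of -0.62. NRF2, encoded by Nfe2l2, is the transcription factor that switches on many antioxidant genes, and its list had 9 of 12 genes fitted lower and 3 higher, with a median of -0.36. Not all of that list are genes it switches on. Nfe2l2 itself was fitted higher at 0.39, and Keap1 and Bach1, whose products hold the pathway back, were fitted lower at -0.34 and -0.52. Slc7a11 and Txnrd1, a cytosolic thioredoxin reductase, had the smallest p of that list, with log2 fold changes of -1.19 and -0.42. The list shares Slc7a11, Txnrd1, Gclm and Srxn1 with the others. Over all genes the median was 0.00, and none of these genes had an unadjusted p under 0.05 but Txnip.

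**Figure D5:**
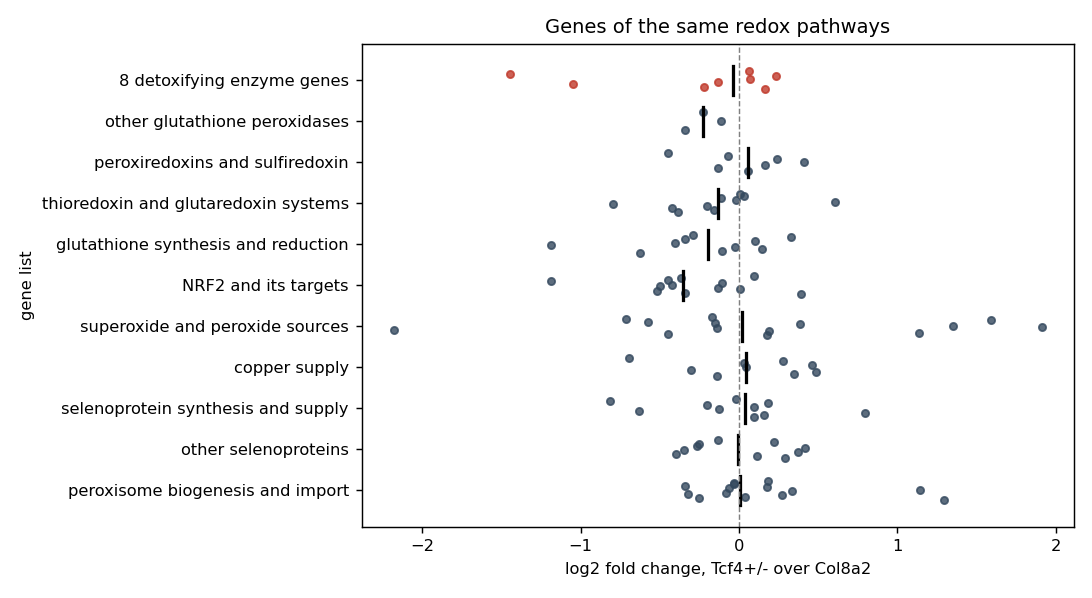
Fitted log2 fold change of Tcf4+/- over Col8a2 for each gene tested in the 8-gene set (red) and in 10 redox pathway lists (dark blue), with a black bar at the median. Points on both sides of 0 occur in every list but other glutathione peroxidases, and Gpx3 and Sod3 are the lowest points of the 8-gene set at -1.45 and -1.05.

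Genes that make superoxide or peroxide were evenly split, with 7 of 14 fitted higher and a median of 0.02. Maob, a monoamine oxidase that releases hydrogen peroxide, stood at 14.5, 11.4 and 16.7 CPM in the Tcf4+/- libraries and 8.39, 2.79 and 3.00 CPM in the Col8a2 libraries, without overlap, with a log2 fold change of 1.59 (unadjusted p = 0.0263, edgeR adjusted p = 0.99988). Duox1, a dual oxidase, had a log2 fold change of 1.91 from a level of 0.435 to 7.12 CPM. Copper supply genes, on which Sod1 and Sod3 depend, had 6 of 9 fitted higher and a median of 0.04, with Cox17, a mitochondrial copper chaperone, at 0.46 and Slc31a2, a copper transporter, at 0.35.

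Selenium handling, on which Gpx1, Gpx3 and Gpx4 depend, was also split. The synthesis and supply list had 5 of 10 fitted higher and a median of 0.04. Eefsec, the elongation factor that brings selenocysteine to the ribosome, stood at 32.8, 35.2 and 36.4 CPM in the Tcf4+/- libraries and 66.9, 57.0 and 37.8 CPM in the Col8a2 libraries, without overlap (log2 fold change -0.63, unadjusted p = 0.0642). Secisbp2, which binds the selenocysteine signal in these transcripts, stood at 12.2, 22.1 and 16.5 CPM in the Tcf4+/- libraries and 9.66, 11.8 and 7.83 CPM in the Col8a2 libraries, also without overlap and on the higher side (log2 fold change 0.80, unadjusted p = 0.104). Other selenoprotein genes had a median of -0.01, with Selenom at 0.37 and Selenos at -0.40. Peroxisome genes, which import catalase and build its compartment, had 7 of 14 fitted higher and a median of 0.00.

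Promoters were read from RefSeq (GRCm38.p6) for the 250 bases before the start of each gene, and 6 of the 8 genes matched, in 9 windows. The annotated exons of GENCODE M21 begin inside some of these windows, after 73 bases for Gpx1 and 168 bases for Gpx3, so the search ran partly over transcribed sequence. Tcf4 and its partners bind the E-box, CANNTG, which reads the same on both strands. An E-box was found in 4 of the 9 windows, all of Gpx4 (1 of the 6 genes), and some of these windows overlap and hold the same sites. The E-box was in 66.2% of all 32851 windows. Its forms CAGCTG and CACCTG were in 13% and 17.2% of all windows. The antioxidant response element bound by NRF2, searched as TGACNNNGC on both strands, was in 1 of the 9 windows, that of Sod1, and in 10.2% of all windows. The windows of Gpx3, the gene with the largest fitted difference, and of Sod1 are printed to the first annotated exon base, plus strand, with the element in capitals.
Gpx3, chr11:54902604-54902771: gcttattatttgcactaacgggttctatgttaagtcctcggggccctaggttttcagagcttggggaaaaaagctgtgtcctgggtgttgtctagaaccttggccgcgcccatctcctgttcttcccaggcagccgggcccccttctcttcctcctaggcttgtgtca
Sod1, chr16:90220512-90220753: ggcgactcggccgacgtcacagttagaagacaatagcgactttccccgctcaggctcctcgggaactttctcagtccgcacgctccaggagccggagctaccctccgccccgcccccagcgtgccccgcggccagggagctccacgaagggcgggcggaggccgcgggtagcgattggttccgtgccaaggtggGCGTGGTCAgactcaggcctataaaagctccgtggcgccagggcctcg
A match is a description of the letters in these windows, and no match says only that the letters are not there.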

How the data were processed

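RNA was prepared with an RNeasy Micro Kit; cDNA came from the SMART-Seq HT Kit and libraries from Nextera XT, per the labels' protocols, which do not describe strand being kept. Per the submitters' processing notes, the tools included RSEM, STAR, DESeq2, fastp 0.23.2 and FastQC 0.12.1, with build GRCm39; for their roles and the annotation release, nothing is stated in these sources. The authors deposited expected counts, which are unscaled estimated counts per gene, and 9.97% of the values are not whole. The authors also deposited TPM, scaled to length and to a common sum. Other columns hold lengths in bases, per the file headers.

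Identifiers were matched to GENCODE M21 symbols (51884 of 57180). Expected counts were rounded, filtered with filterByExpr, scaled by TMM and tested with edgeR 4.0.16 in R 4.3.3 (robust, group only, Benjamini-Hochberg threshold 0.05). limma 3.58.1 and DESeq2 1.42.0 were alternatives. Standard errors of log2 fold changes had a median of 0.54. The labels do not say that libraries came from separate animals, so the p-values cover only spread among these 6, which may be technical. No pair of libraries agreed within sampling noise. Depth was 30344161 to 54265479 counts per library. The scripts were tested on simulated data. The genes named follow a rule: the 8 genes, Tcf4, the 2 genes of smallest p in each pathway list, the 2 highest in each marker list, and the 2 genes nearest each of the 8 in centred log2 CPM. Gclm, as a gene shared by lists, Nfe2l2, Keap1 and Bach1 of the NRF2 list, the other glutathione peroxidase genes and Gpx4-ps2 were named outside that rule. Single genes of the peroxisome list are not reported here. The 8 genes and all lists were chosen with earlier results of these data known.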

Additional observations from a re-analysis of the deposited data

How the results depend on the processing

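Gpx3 and Sod3 kept their negative sign under all 22 alternatives and passed under none (adjusted p 0.499 to 1 and 0.467 to 1); log2 fold changes ran from -1.90 to -0.89 and from -1.50 to -0.81. Ccs also kept its sign. On the log2 TPM scales (pseudocount 0.1, 1, and 1 with all genes above 0) Sod1 gave -0.223 each time, Gpx1 -0.041, Gpx4 -0.243, Cat -0.170, -0.163 and -0.163, and Tcf4 -0.072, -0.071 and -0.071. There the all-gene median was -0.178, -0.152 and -0.033. Without mitochondrial tRNA genes, log2 fold changes on log2(TPM + 1) were -0.059 for Sod1, -0.007 for Cat and -0.079 for Gpx4. Gpx1 and Tcf4 were fitted higher there, at 0.122 and 0.092. limma voom gave -0.008 for Cat, an effective length offset -0.027 for Gpx4, and the endothelium level as covariate -0.092 for Cat and -0.044 for Gpx4. Without Tcf4+/- replicates 2 and 3, Sod1 was -0.167, Sod2 0.118 and Gpx4 -0.081. Leaving out 1 library at a time gave -0.102 to 0.295 for Sod1, -0.202 to 0.294 for Cat, -0.060 to 0.450 for Gpx1, -0.119 to 0.277 for Gpx4, -0.441 to -0.032 for Sod2, -0.283 to -0.046 for Ccs and 0.022 to 0.356 for Tcf4. The cause was not tested.

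Over all genes, DESeq2 called 76 higher and 31 lower, log2(TPM + 0.1) 5 and 1, and log2(TPM + 1) with all genes 2 higher; leaving out 1 library gave 0 to 2 in each direction. Unadjusted counts were 1251 with DESeq2, 1212 with no filter, 273 at a mean of at least 5 CPM, 1067 on log2(TPM + 1) with all genes, 261 without Tcf4+/- replicates 2 and 3, and 437 to 839 with 1 library left out. List medians moved to -0.184 on all 3 TPM scales for peroxiredoxins and to -0.400, -0.385 and -0.385 for thioredoxin genes. On log2(TPM + 0.1) they were -0.329 for copper supply and -0.356 for other selenoproteins. At 5 CPM copper supply was 0.333. Without Tcf4+/- replicates 2 and 3, glutathione synthesis was 0.132 and peroxisome genes 0.443. With 1 library left out, NRF2 ran from -0.399 to -0.113, other glutathione peroxidases from -0.369 to 0.168 and other selenoproteins from -0.043 to 0.301.

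With the replicate number as a replicate block, Sod3 was -1.13 and Gpx3 -1.14, 0 genes were called (432 at unadjusted p under 0.05), and no call changed. In deviations from group means over 10057 genes, same-numbered libraries correlated at -0.073, 0.368 and -0.031. Differently numbered libraries of the 2 groups correlated at -0.252 to 0.263. With 3 libraries a group these values cannot settle whether the numbers mark pairs. The labels do not say that they do, so the numbers were not taken as pairs. The median standard error of 0.54 over all genes, from 3 libraries a group, limits what could be called.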
